A study of Caenorhabditis elegans with 12 samples.

Results

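The genes described here are 10 genes of the intracellular pathogen response of Caenorhabditis elegans or genes reported with it: pals-5, pals-6, pals-11, pals-27, pals-29, pals-31, pals-32, eol-1, F26F2.4 and B0507.8. They were found by symbol in the array's annotation, which gave 10 probe sets, 1 for each gene, among 22625 probe sets standing for 17118 genes. The 10 genes were chosen from their levels in these same arrays, so their levels and differences are given as a description, with no p-value, and their numbers of limma calls are given beside the share of all probe sets and support nothing. Whole wild-type (N2) worms were grown on HT115 bacteria carrying RNAi constructs from day 1 of adulthood for 3 days and are labelled day 3 adults; eggs and larvae were washed away. There were 4 groups of 3 arrays: hsp-6;dve-1, hsp-6;hsf-1, hsp-6 and empty vector, each named for the genes its RNAi was aimed at. The first group is called the dve-1-labelled arrays and the second hsf-1 double RNAi. hsp-6 encodes the mitochondrial HSP70 chaperone, and hsf-1 and dve-1 encode transcription regulators of the heat shock response and of the mitochondrial unfolded protein response. The study asked which transcripts respond to hsp-6 RNAi and which of those depend on hsf-1, on dve-1 or on both. The arrays measure total RNA of whole worms, in which fewer cells of a type and less RNA per cell cannot be told apart.

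The intracellular pathogen response is a transcriptional programme of the worm that is known from infection of intestinal cells by microsporidia and by the Orsay virus, and from proteasome blockade and prolonged heat. Many of its genes belong to the pals family, which is expanded in nematodes and named for a shared protein signature; most pals proteins have no known biochemical activity. pals-22 and pals-25 are antagonistic regulators of the programme, and a cullin ubiquitin ligase built around CUL-6 is among its effectors. eol-1 encodes a protein of the DXO family of RNA decapping enzymes and is also known from studies of olfactory learning. F26F2.4 and B0507.8 carry sequence names and are known from lists of infection-induced genes.

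The values are log2 GCRMA values, which cannot be compared as levels between probe sets of different genes. The lowest value on every array was 2.16, and a value below 4 is treated here as no measured signal. Tests were limited to the 12057 probe sets with at least 3 arrays above 4. All 10 genes passed this filter, and pals-5, pals-11, pals-27, pals-29, pals-32 and F26F2.4 passed it with 0 or 1 arrays outside the dve-1-labelled group, so their passing rests on the group in which they are high. The probe sets of F26F2.4 and B0507.8 are of kinds that can share probes with related transcripts, so their values may include those. Array medians over the tested probe sets lay between 7.94 and 8.11. The labels do not say whether the 3 arrays of a group came from separate cultures, so the spread between them may be technical. The hsp-6 probe set with the higher signal was lower on hsp-6 RNAi arrays than on empty vector arrays by 4.28 ± 0.30 (SE, log2 difference, limma adjusted p = 0.000187). On double RNAi arrays hsp-6 was less reduced: it read 10.26, 10.06 and 9.13 on the dve-1-labelled arrays, 10.08, 9.29 and 9.52 with hsf-1 double RNAi, 6.96, 6.97 and 6.60 with hsp-6 RNAi and 11.3, 10.96 and 11.1 with empty vector. On the dve-1-labelled arrays a dve-1 probe set read 8.15, 8.90 and 7.14, against 6.25, 5.87 and 8.18 with hsf-1 double RNAi, 5.68, 5.83 and 5.09 on hsp-6 RNAi arrays and 5.47, 5.47 and 5.58 on empty vector arrays. The dve-1 transcript was thus higher on the arrays labelled as its knockdown than on hsp-6 RNAi arrays, by 2.53 ± 0.57 (SE, limma adjusted p = 0.0297), which goes against that label, while the double RNAi groups overlapped. Whether the RNAi construct covers the stretch this probe set reads was not tested. A second dve-1 probe set differed by 0.24 ± 0.27 (SE, limma adjusted p = 0.625). Both hsf-1 probe sets were lower with hsf-1 double RNAi than with hsp-6 RNAi, without overlap, but were not called. The differences were -0.90 ± 0.32 and -0.78 ± 0.41 (SE, limma adjusted p = 0.121 and 0.263). Against empty vector they were -1.64 and -1.60 with hsf-1 double RNAi (limma adjusted p = 0.0847 and 0.0872). With hsp-6 RNAi alone they were -0.74 and -0.82 (limma adjusted p = 0.214 and 0.277).

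On the dve-1-labelled arrays each of the 10 genes was higher than on hsp-6 RNAi arrays and on empty vector arrays, and all 10 were highest on replicate 3 of that group. Among all tested probe sets 8.0% were highest on that array. The log2 differences from hsp-6 RNAi ran from 1.80 for pals-27 to 5.65 for B0507.8, with a median of 4.18, beside a median of -0.06 over all tested probe sets. Many of the lower values lie in the range without measured signal; with these set to log2 4 the median was 2.75 (1.26 to 5.13) against hsp-6 RNAi, 2.75 (1.26 to 5.37) against empty vector and 2.43 (1.24 to 3.58) against hsf-1 double RNAi. Without replicate 3 the differences of the deposited values from hsp-6 RNAi ran from 0.82 to 4.65, beside a median of -0.11 over all tested probe sets. Their median was 2.80, to be read beside 4.18 and not beside 2.75. The median without replicate 3 and with low values set to log2 4 was not computed. Against empty vector, hsp-6 RNAi had a median log2 difference of 0.09 over the 10 genes and hsf-1 double RNAi one of 1.02, beside 4.50 for the dve-1-labelled arrays. The plot of levels by RNAi group shows all 12 arrays for each gene.

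**Figure D1:**
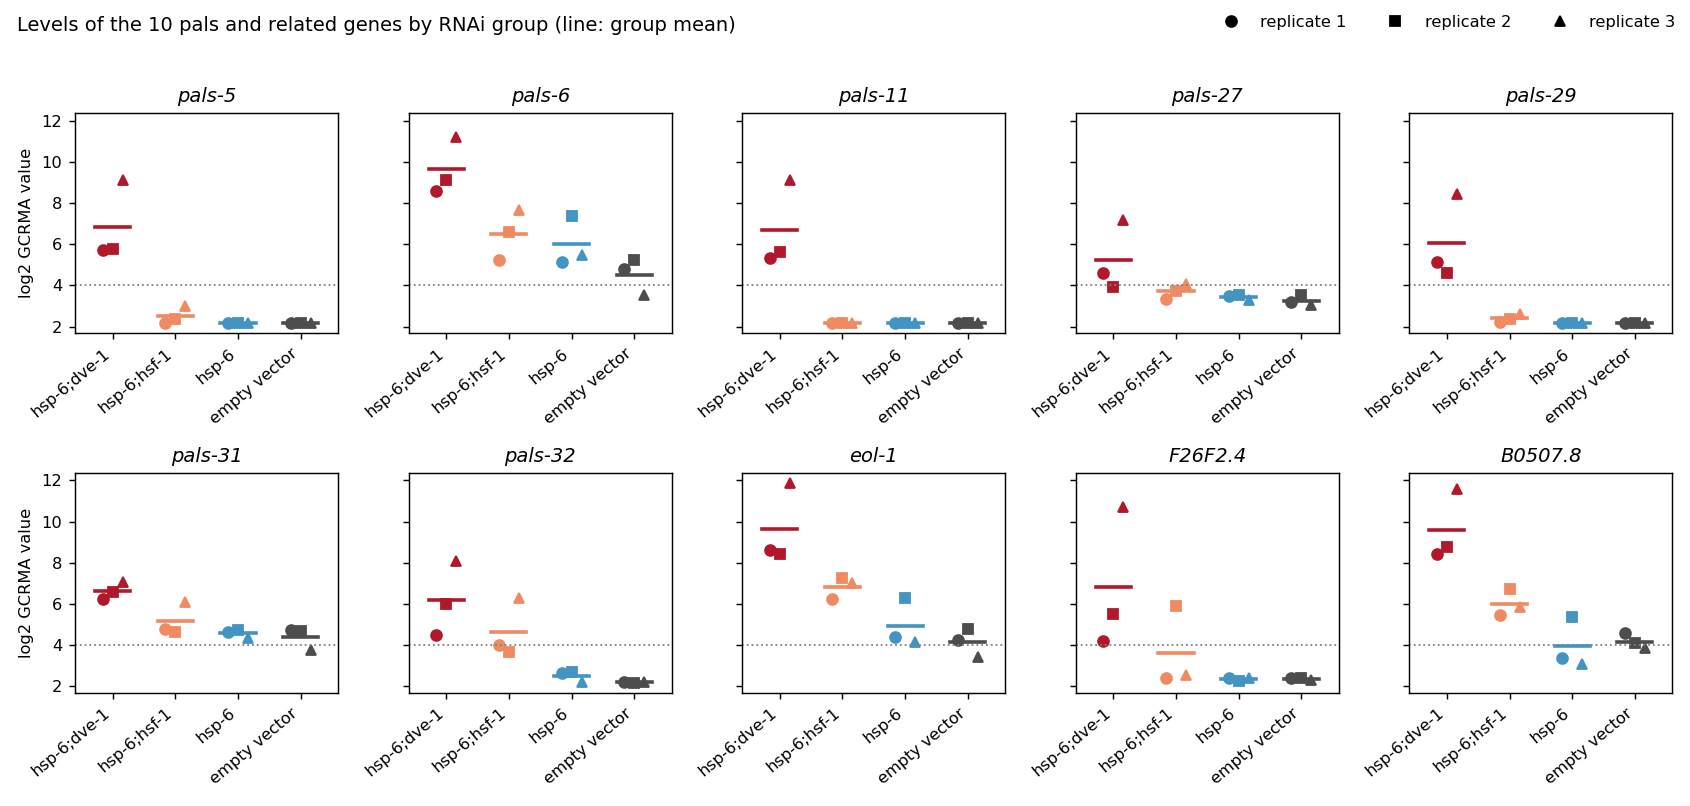
Log2 GCRMA values (vertical axis) of the 10 genes in 4 RNAi groups (horizontal axis), 1 point for each array, with the marker shape giving the replicate number and the bar the group mean of 3 arrays. The dotted line marks log2 4; all 10 genes are highest on hsp-6;dve-1 replicate 3, and 7 genes have all 3 hsp-6;dve-1 arrays above the 9 others.

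pals-5, the gene most often used as a reporter of the response, read 5.70, 5.76 and 9.12 on the dve-1-labelled arrays, against 2.16, 2.35 and 2.98 with hsf-1 double RNAi, 2.16, 2.17 and 2.16 with hsp-6 RNAi, and 2.16 on all 3 empty vector arrays. Signal above log2 4 was thus measured on the dve-1-labelled arrays and on none of the other 9. Since hsp-6 RNAi gave no measured signal, the difference is a bound: at least 7.25-fold higher, with the low values set to log2 4. pals-11, which lies close to pals-5, read 5.31, 5.64 and 9.12 on the dve-1-labelled arrays and 2.16, the lowest value, on the 9 others. Its difference was at least 6.46-fold. The group standard deviation was 1.96 for pals-5 and 2.11 for pals-11 on the dve-1-labelled arrays (n = 3), almost all of it between replicate 3 and the other arrays.

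pals-6 had measured signal on 11 arrays. It read 8.60, 9.12 and 11.20 on the dve-1-labelled arrays, against 5.22, 6.62 and 7.68 with hsf-1 double RNAi, 5.14, 7.37 and 5.49 with hsp-6 RNAi, and 4.81, 5.26 and 3.52 with empty vector. The 3 dve-1-labelled arrays were above all others, while the other groups overlapped. Replicate 2 of hsp-6 RNAi stood above replicates 1 and 3 of its group by at least 1.89 for pals-6, and likewise by at least 1.88 for eol-1 and 2.02 for B0507.8. The log2 difference of pals-6 between the dve-1-labelled arrays and hsp-6 RNAi was 3.64 ± 0.84 (SE), or 2.86 without replicate 3.

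The other pals genes of the set lie elsewhere in the genome. pals-29 read 5.12, 4.59 and 8.44 on the dve-1-labelled arrays, against 2.23, 2.37 and 2.61 with hsf-1 double RNAi and 2.18 on every hsp-6 RNAi and empty vector array. It was at least 4.14-fold higher than with hsp-6 RNAi, and the hsf-1 double RNAi values, though above those with hsp-6 RNAi and empty vector, are all below log2 4. pals-27 read 4.58, 3.91 and 7.20 on the dve-1-labelled arrays, against 3.36, 3.75 and 4.06 with hsf-1 double RNAi, 3.48, 3.52 and 3.28 with hsp-6 RNAi and 3.21, 3.52 and 3.04 with empty vector. Its replicate 2 value of 3.91 lies below log2 4 and below the highest hsf-1 double RNAi value, so these groups overlap. pals-27 rests most on replicate 3: its difference from hsp-6 RNAi was 1.80 ± 0.65 (SE) with that array and 0.82 without it.

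pals-31 and pals-32 differed in how even they were. pals-31 read 6.23, 6.59 and 7.07 on the dve-1-labelled arrays, against 4.78, 4.65 and 6.10 with hsf-1 double RNAi, 4.65, 4.75 and 4.33 with hsp-6 RNAi, and 4.75, 4.67 and 3.78 with empty vector. It had the smallest spread of the 10 on the dve-1-labelled arrays (SD 0.42, n = 3). Its difference from hsp-6 RNAi was 2.05 ± 0.42 (SE), a 4.15-fold change, and 1.83 without replicate 3. pals-32 read 4.48, 6.01 and 8.06 on the dve-1-labelled arrays, against 4.0, 3.67 and 6.28 with hsf-1 double RNAi, 2.64, 2.70 and 2.18 with hsp-6 RNAi, and 2.18, 2.17 and 2.22 with empty vector. The double RNAi groups overlapped, and both lay wholly above the hsp-6 RNAi and empty vector arrays, though 2 of the 3 hsf-1 double RNAi values were not above log2 4.

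eol-1 and B0507.8 had measured signal in both double RNAi groups. eol-1 read 8.64, 8.41 and 11.88 on the dve-1-labelled arrays, against 6.25, 7.26 and 7.0 with hsf-1 double RNAi, 4.41, 6.29 and 4.13 with hsp-6 RNAi, and 4.22, 4.78 and 3.40 with empty vector. It was 26-fold higher on the dve-1-labelled arrays than with hsp-6 RNAi (4.70 ± 0.86, SE, log2), and by 3.58 without replicate 3. B0507.8 read 8.42, 8.75 and 11.58 on the dve-1-labelled arrays, against 5.46, 6.72 and 5.83 with hsf-1 double RNAi, 3.35, 5.36 and 3.09 with hsp-6 RNAi, and 4.56, 4.09 and 3.84 with empty vector. Its log2 difference from hsp-6 RNAi was 5.65 ± 0.80 (SE) in the deposited values, 2 of which lie below log2 4 on the hsp-6 RNAi side, 5.13 with low values set to log2 4, and 4.65 without replicate 3. For both genes the dve-1-labelled arrays stood above all 9 others.

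F26F2.4 was the most uneven of the 10. It read 4.20, 5.53 and 10.71 on the dve-1-labelled arrays, against 2.38, 5.92 and 2.56 with hsf-1 double RNAi, 2.38, 2.24 and 2.38 with hsp-6 RNAi, and 2.38, 2.38 and 2.31 with empty vector. Replicate 2 of hsf-1 double RNAi was above 2 of the dve-1-labelled arrays, while its sister arrays had no measured signal. The standard deviation on the dve-1-labelled arrays was 3.44 (n = 3), and the difference from hsp-6 RNAi was at least 7.02-fold. Without replicate 3 the log2 difference of the measured means was 2.53, against 4.48 ± 1.39 (SE) with it.

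Over the 10 genes, the dve-1-labelled arrays lay above all 3 hsp-6 RNAi arrays for 10 genes, as did 14.0% of the tested probe sets, and without replicate 3 for 10 (22.8%). Limma called 8 of them higher at an adjusted p below 0.05, beside 2.78% of the tested probe sets; both measures belong to the contrasts the genes were chosen on. Against empty vector, 8 were called higher (1.75% of the tested probe sets), or 7 with the replicate number as a block, and for 10 the arrays did not overlap (14.3%), nor without replicate 3 (23.8%). The median log2 difference from empty vector was 4.50, or 3.18 without replicate 3. Against hsf-1 double RNAi, 2 were called higher (0.224%), pals-5 and pals-11, which passed the filter solely through the dve-1-labelled arrays, and 7 did not overlap (2.43%), or 7 without replicate 3 (4.65%), with a median of 3.16, or 2.02 without replicate 3. The exceptions were pals-27, pals-32 and F26F2.4. The same 7 genes had all 3 dve-1-labelled arrays above the 9 others (0.970% of the tested probe sets), and 7 had this without replicate 3 (1.92%). These comparisons share the dve-1-labelled arrays, so their values are not independent. The numbers of calls moved with single arrays: in the comparison with hsp-6 RNAi 2 of the 10 were called without hsp-6 RNAi replicate 1 and 2 without replicate 3, 5 without replicate 2, and 6, 5 and 7 without replicates 1, 2 and 3 of the dve-1-labelled arrays. In the comparison with empty vector 1 was called without empty vector replicate 1, 0 without its replicate 3, 5 without hsp-6 RNAi replicate 1 and 5 without hsp-6 RNAi replicate 3. In the comparison with hsf-1 double RNAi no call was left without any 1 of the 9 arrays outside the dve-1-labelled group. They moved with the processing too: in the comparison with hsp-6 RNAi 3 were called with no filter, 3 with the compared groups fitted alone, 5 with low values set to log2 4 and 2 with hsp-6 RNAi replicates 1 and 3 averaged. With empty vector the numbers under these settings were 0, 0, 4 and 5, and with hsf-1 double RNAi 0 under each. With the replicate number as a block, 8 were called against hsp-6 RNAi and 0 against hsf-1 double RNAi.

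**Figure D2:**
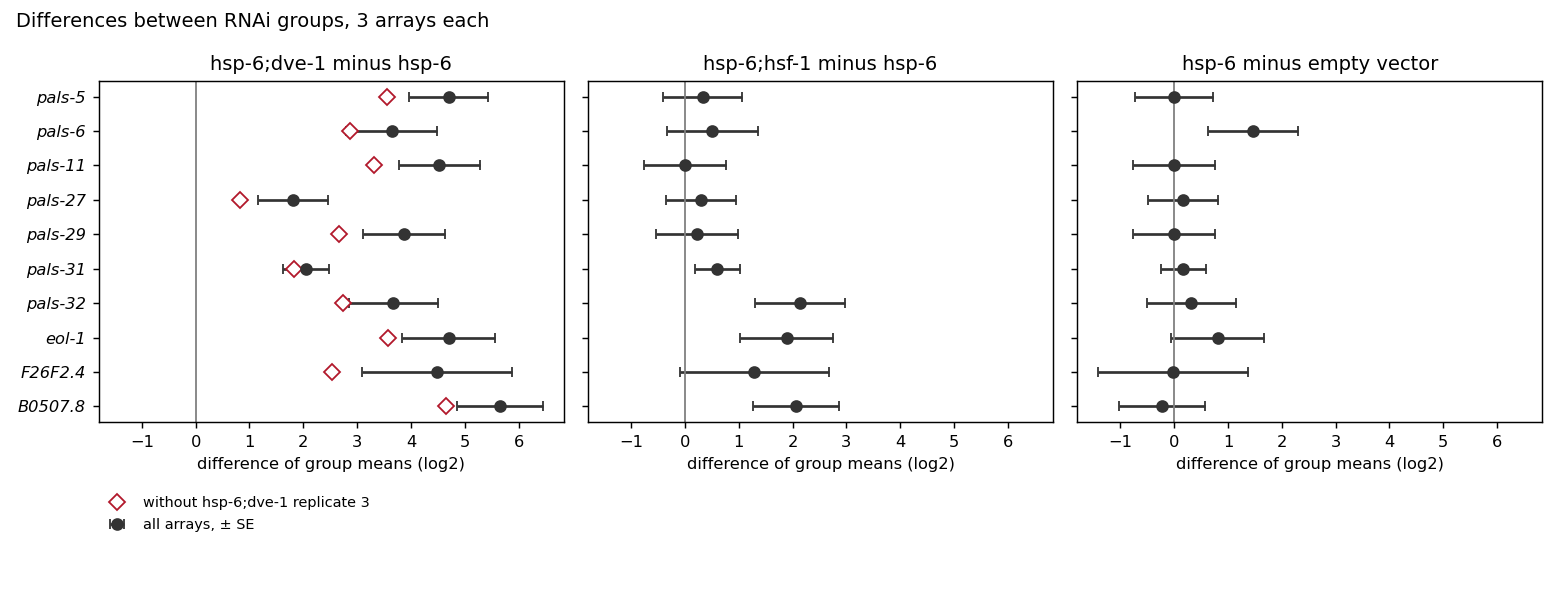
Log2 differences of group means (horizontal axis) for the 10 genes (vertical axis) in 3 comparisons of 3 arrays against 3; points are all arrays, bars the standard error from limma, and open diamonds the difference without hsp-6;dve-1 replicate 3. The differences between hsp-6;dve-1 and hsp-6 run from 1.80 to 5.65, and those between hsp-6 and empty vector from -0.23 to 1.47.

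With hsf-1 double RNAi the 10 genes had a median log2 difference of 0.55 from hsp-6 RNAi, with a range of 0.00 to 2.14, beside -0.10 over all tested probe sets. Limma called 0 of them (2.91% of the tested probe sets were called higher). An unadjusted p below 0.05 was found for 3 of the 10 and for 2980 of the 12057 tested probe sets. For pals-29, pals-32 and B0507.8 the arrays did not overlap (12.9% of the tested probe sets). pals-29 was below log2 4 on all arrays of both groups, so its values cannot show a difference. pals-32 was higher by 2.14 ± 0.83 (SE), B0507.8 by 2.07 ± 0.80 and eol-1, whose groups overlapped, by 1.89 ± 0.86. Against empty vector the median was 1.02, and 4 did not overlap (14.5%). Limma called 0 of the 10 and 0.00% of the tested probe sets. In this comparison 4 of the 10 had an unadjusted p below 0.05, as did 3593 of the 12057 tested probe sets. Within the hsf-1 double RNAi group, pals-5, pals-6, pals-27, pals-29, pals-31 and pals-32 were highest on replicate 3, and eol-1, F26F2.4 and B0507.8 on replicate 2.

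With hsp-6 RNAi alone, 4 of the 10 genes could be compared with empty vector: pals-6, pals-31, eol-1 and B0507.8. pals-5, pals-11, pals-27, pals-29, pals-32 and F26F2.4 were below log2 4 on all 6 arrays, so their values cannot show a difference in either direction. The median log2 difference over the 10 was 0.09, and limma called 0 of the 10 (1.97% of the tested probe sets were called higher). An unadjusted p below 0.05 was found for 0 of the 10 and for 2609 of the 12057 tested probe sets. In none of the 4 genes that could be compared were the hsp-6 RNAi arrays wholly above the empty vector arrays. Among all tested probe sets, 19.4% had this. pals-6 differed by 1.47 ± 0.84 (SE) and B0507.8 by -0.23 ± 0.80 (SE).

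Replicate 3 of the dve-1-labelled arrays stood far above its group for most of the 10 genes. That array exceeded the mean of replicates 1 and 2 by 0.66 for pals-31 and by 5.84 for F26F2.4, with a median of 3.18, and by more than 1.5 for 9 of the 10. Over all tested probe sets the median of that difference was 0.18, and 1.21% exceeded 1.5. The mean standardised level of the 10 genes, in SD units over the 12 arrays, was 0.78, 0.90 and 2.4 on the dve-1-labelled arrays, -0.39, -0.07 and 0.14 with hsf-1 double RNAi, -0.62, -0.35 and -0.70 with hsp-6 RNAi and -0.63, -0.59 and -0.86 with empty vector. On the first principal component of all tested probe sets, with 56.5% of the variance, hsf-1 double RNAi arrays read 46.1, 2.2 and 104.3. Values were -44.1, -43.2 and -44.3 on hsp-6 RNAi arrays and -53.6, -31.9 and -56.9 on empty vector arrays. The dve-1-labelled replicates 1 and 2 read 36.9 and 97. Replicate 3 lay apart from them at -12.6, the only negative value among the double RNAi arrays. The dve-1 reading of 7.14 on that array was the lowest of its group. Over the 12 arrays the 45 pairs among the 10 genes had Pearson correlations of 0.71 to 0.99 (median 0.89). Without replicate 3 they ran from 0.5 to 0.99 (median 0.78). Over the 9 arrays outside the group they ran from -0.07 to 0.97 (median 0.67). On those 9 arrays pals-5, pals-11 and pals-29 had no measured signal, and pals-27, pals-32 and F26F2.4 had it on 1 array at most. Pairs with these genes therefore cannot show whether the genes vary together outside the group. The 12 arrays share the group differences, so the correlations are descriptive.

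Of the tissue markers, only those of sperm had summed levels that separated the double RNAi arrays from the other arrays. Intestine markers (13 probe sets, such as those of ges-1 and the vitellogenin genes) were above log2 4 for 12 or 13 probe sets on every array. Their log2 summed level was 16.48 to 16.67 on the dve-1-labelled arrays, 16.41 to 16.87 with hsf-1 double RNAi, 16.76 to 17.06 with hsp-6 RNAi and 16.57 to 16.75 with empty vector. Levels were summed unlogged, so the vitellogenin probe sets make up most of this sum and it says little about the other intestine markers. Single intestine probe sets differed from hsp-6 RNAi by -1.05 to 2.41 (log2) on the dve-1-labelled arrays. With hsf-1 double RNAi they differed from it by -0.98 to 3.31. Sperm markers (30 probe sets, mostly major sperm protein genes) summed to 17.05, 17.73 and 14.72 on the dve-1-labelled arrays and to 15.98 to 17.54 with hsf-1 double RNAi, against 8.93 to 12.93 with hsp-6 RNAi and 9.75 to 14.52 with empty vector. Replicate 3, the highest array for all 10 genes, had the lowest sperm sum of the 6 double RNAi arrays, and hsf-1 double RNAi replicates 1 and 3, at 17.54 and 17.37, had sums between those of replicates 1 and 2 with a lower mean level of the 10 genes. Of the 9 probe sets of male neuron markers, 0 were above log2 4 on any array. Embryo markers (8 probe sets) summed to 5.98 to 7.82 on the dve-1-labelled arrays, 6.18 to 7.18 with hsf-1 double RNAi, 5.76 to 6.63 with hsp-6 RNAi and 6.59 to 8.0 with empty vector. Moulting and cuticle markers (23 probe sets) spanned 9.69 to 12.38, 9.67 to 12.81, 10.44 to 12.01 and 9.70 to 11.80 in the same order of groups. The part of these tissues in the levels of the 10 genes was not tested.

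**Figure D3:**
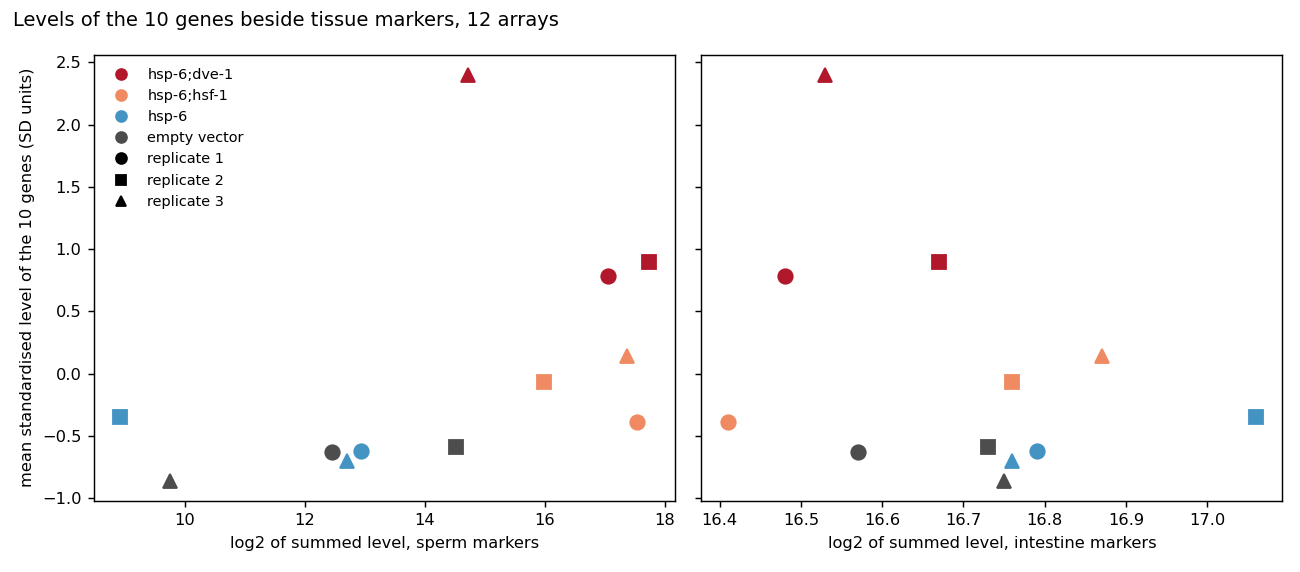
Mean standardised level of the 10 genes in SD units (vertical axes) against the log2 summed level of sperm markers (left) and intestine markers (right), 1 point for each of 12 arrays, coloured by RNAi group and shaped by replicate. The highest array for the 10 genes, hsp-6;dve-1 replicate 3, is at 2.4 with a sperm sum of 14.72, below the 5 other double RNAi arrays.

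Most of the other pals genes did not pass the filter. Of 14 other pals genes on the array (pals-22 and pals-25 are counted with the regulators), 3 passed the filter, and 4 were above log2 4 on no array. pals-38 read 5.83, 4.91 and 8.76 on the dve-1-labelled arrays, against 2.99, 3.23 and 3.23 with hsp-6 RNAi. It was at least 5.65-fold higher (log2 difference of the deposited values 3.35 ± 0.74, SE, limma adjusted p = 0.0279). pals-33 read 5.71, 5.73 and 9.08 against 3.53, 3.78 and 3.21 with hsp-6 RNAi. It was at least 7.17-fold higher (3.33 ± 0.81, SE, limma adjusted p = 0.0375). Limma called 2 of the 3 higher in this comparison and 1 against empty vector, pals-33 (at least 7.17-fold, log2 difference 3.53, adjusted p = 0.0498, or 0.0507 with the replicate number as a block). Without replicate 3 the differences from hsp-6 RNAi were 2.22 for pals-38 and 2.21 for pals-33. pals-38 was above log2 4 on 5 arrays and pals-33 on 4, all 3 dve-1-labelled arrays among them. Neither was above it on any hsp-6 RNAi or empty vector array. Their passing of the filter thus rests on the group in which they are high, and their adjusted p-values are no independent support. The call of pals-38 was lost without any 1 of the hsp-6 RNAi replicates or dve-1-labelled replicate 1 (adjusted p up to 0.0972), and that of pals-33 without any 1 of 9 of the 12 arrays (up to 0.128). Both were lost under 4 of 10 other settings, low values set to log2 4 among them (up to 0.098 and 0.123). The call of pals-33 against empty vector was lost without any 1 of 10 of the 12 arrays (up to 0.154) and under 8 of 10 other settings (up to 0.145). pals-23 was not called in any of the 6 comparisons; it read 6.42, 7.41 and 7.50 on the dve-1-labelled arrays, 5.34, 7.17 and 7.88 with hsf-1 double RNAi, 7.77, 7.39 and 7.90 with hsp-6 RNAi and 5.12, 6.02 and 6.84 with empty vector. pals-1, pals-2, pals-4, pals-12, pals-28 and pals-30 were above log2 4 on replicate 3 of the dve-1-labelled arrays and on no other array, with values there of 5.26 to 8.59. Of the 14, 9 had measured signal and were highest on that array.

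**Figure D4:**
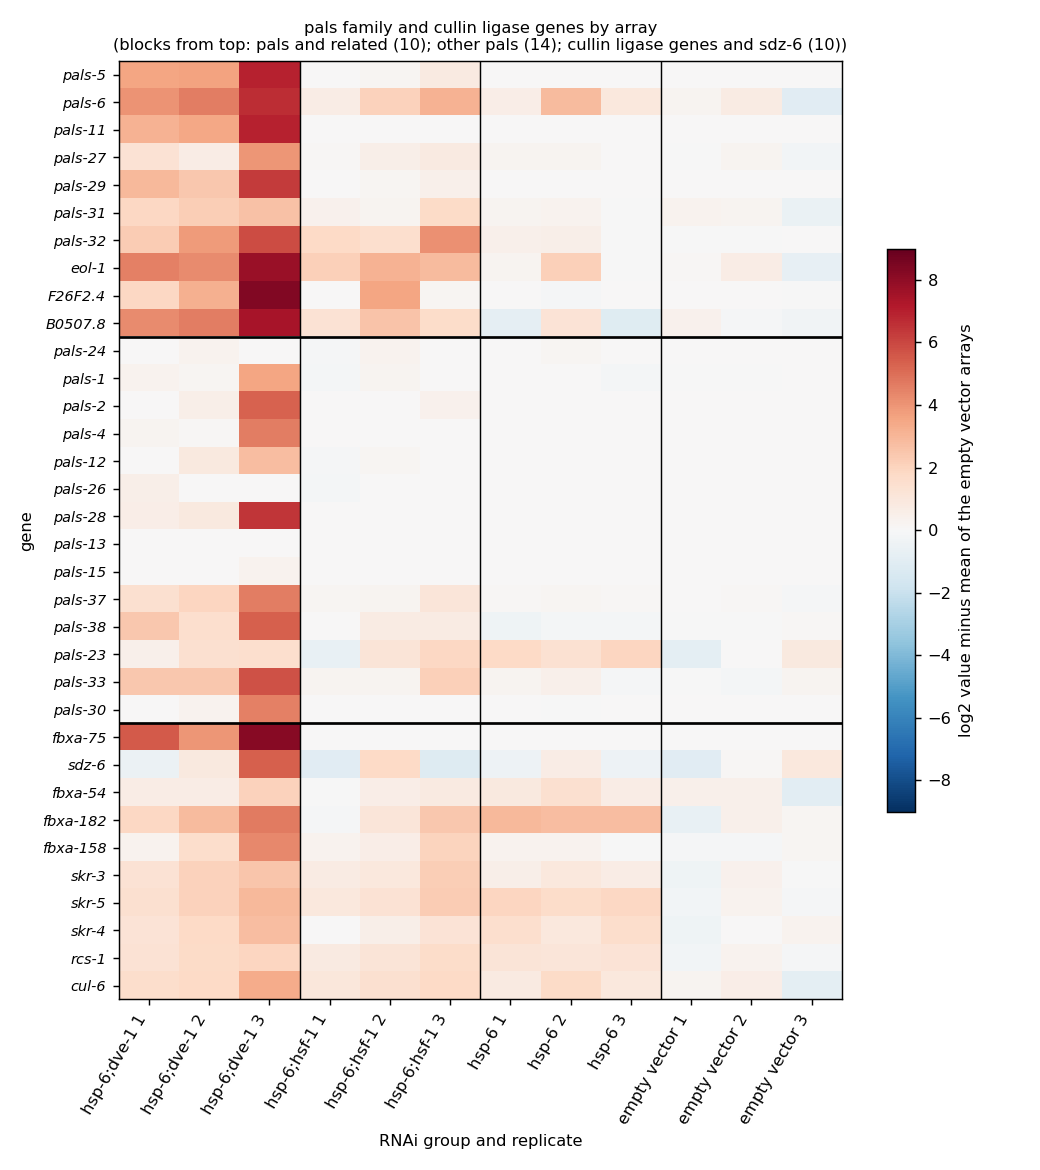
Log2 value minus the mean of the 3 empty vector arrays (colour) for the 10 genes, 14 other pals genes and 10 cullin ligase and further response genes (rows), on 12 arrays (columns, grouped by RNAi). Replicate 3 of hsp-6;dve-1 is the highest array for all 10 genes of the first block, 9 of the second with measured signal and 10 of the third.

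Of the cullin ligase and further response genes, most calls were against empty vector. The list holds cul-6, the cullin, skr-3, skr-4 and skr-5, which encode Skp1-related adaptors, rcs-1, which encodes a RING protein, the F-box genes fbxa-54, fbxa-75, fbxa-158 and fbxa-182, and sdz-6; 9 of the 10 genes passed the filter. On the dve-1-labelled arrays, 7 of the 9 were higher than with empty vector by limma and 0 lower (6 with the replicate number as a block), beside 1.75% called higher over all tested probe sets, with a median log2 difference of 1.96. cul-6 read 7.11, 7.30 and 8.86 on the dve-1-labelled arrays, against 6.54, 6.98 and 7.33 with hsf-1 double RNAi, 6.32, 7.29 and 6.46 with hsp-6 RNAi and 5.76, 6.17 and 4.69 with empty vector. skr-5 read 7.59, 8.18 and 9.04, against 7.08, 7.45 and 8.40 with hsf-1 double RNAi, 8.07, 7.80 and 7.97 with hsp-6 RNAi and 5.88, 6.45 and 6.05 with empty vector. It rose with hsp-6 RNAi alone by 1.82 ± 0.39 (SE, limma adjusted p = 0.0368), and by 2.14 ± 0.39 on the dve-1-labelled arrays (SE, limma adjusted p = 0.0271), both against empty vector. The remaining calls in that comparison were fbxa-75, fbxa-182 (at least 5.19-fold, log2 difference 3.12 ± 0.72, SE, adjusted p = 0.0498), cul-6 (2.22 ± 0.51, SE, adjusted p = 0.0498, or 0.0745 with the block), skr-3, skr-4 and rcs-1. The last 3 are named after their values were seen. The count of 7 remained 7 without replicate 3 of the dve-1-labelled arrays, but fell to 1 without their replicate 2, to 1 without empty vector replicate 1 and to 1 without its replicate 3, to 4 without its replicate 2, to 2, 3 and 2 without hsp-6 RNAi replicates 1, 2 and 3, and to 0 when the compared groups were fitted alone. The hsp-6 RNAi call of skr-5 was lost without any 1 of the 6 arrays compared (limma adjusted p up to 0.123). Against hsp-6 RNAi, 1 of the 9 was called higher on the dve-1-labelled arrays, with a median log2 difference of 0.59. For the 10 genes the median was 4.18, or 2.75 with low values set to log2 4. Those 10 genes were chosen on this contrast, and 6 of them had no measured signal with hsp-6 RNAi. Their medians therefore cannot be set against 0.59. With hsp-6 RNAi against empty vector the medians were 1.14 for this list and 0.09 for the 10 genes. Of the 10 genes, 6 had no measured signal on these arrays, so 0.09 cannot be set against 1.14. The 4 that could be compared differed by 1.47 (pals-6), 0.81 (eol-1), 0.17 (pals-31) and -0.23 (B0507.8). Whether the list and the 10 genes differ in these comparisons was not tested.

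fbxa-75, an F-box gene, was the exception within that list. It read 7.68, 6.13 and 10.32 on the dve-1-labelled arrays and 2.16 to 2.17 on the 9 others. It therefore passed the filter solely through the group in which it is high, and its adjusted p-values are no independent support. It was at least 16.5-fold higher than with hsp-6 RNAi (log2 difference of the measured means 5.89 ± 0.76, SE, limma adjusted p = 0.00281), and 4.75 on the log2 scale without replicate 3. The adjusted p was at most 0.0194 in the fits that left out 1 array and at most 0.0288 under the 11 other settings. The same gene was also called against empty vector (limma adjusted p = 0.00571) and against hsf-1 double RNAi (5.88 ± 0.76, SE, limma adjusted p = 0.00865). The call against empty vector was lost when the compared groups were fitted alone (adjusted p = 0.0736), and the call against hsf-1 double RNAi without replicate 1 of that group (adjusted p = 0.0561) and under 3 other settings (up to 0.406).

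The regulators of the response showed no call. Their list holds 13 genes, among them pals-22, pals-25, zip-1, which encodes a bZIP transcription factor, drh-1, which encodes a RIG-I-like sensor of viral RNA, lin-35, the retinoblastoma homologue, and pnp-1, which encodes a purine nucleoside phosphorylase known to repress the programme. Of 17 tested probe sets limma called 0 in each of the 6 comparisons, with 0 to 4 at an unadjusted p below 0.05. pals-22 lay between 5.83 and 6.30 on the 12 arrays. pnp-1 (by the probe set with the higher signal) read 10.04, 11.03 and 8.43 on the dve-1-labelled arrays, against 9.86, 9.36 and 11.64 with hsf-1 double RNAi, 8.45, 8.43 and 8.57 with hsp-6 RNAi and 8.42, 8.43 and 8.07 with empty vector. It was therefore at the single RNAi level on the array where the 10 genes were highest, and high on the 5 other double RNAi arrays. Any link between pnp-1 and the levels of the 10 genes was not tested. The log2 difference of pnp-1 between the dve-1-labelled arrays and hsp-6 RNAi was 1.35 (limma adjusted p = 0.218), and 2.05 without replicate 3 (adjusted p = 0.0404). drh-2, a relative of drh-1, had the highest difference between hsp-6 RNAi and empty vector, 1.14 (limma adjusted p = 0.189). Without hsf-1 double RNAi replicate 3 and dve-1-labelled replicate 2 its adjusted p was 0.0238.

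The genes whose levels followed the 10 most closely over the 12 arrays included pals-33 and pals-38. By Pearson correlation with the mean standardised level, the 6 closest probe sets outside the set were droe-8 (0.975), pals-33 (0.970), F42C5.3 (0.968), math-10 (0.967), pals-38 (0.966) and ZC196.3 (0.949). Replicates 2 and 3 of the dve-1-labelled arrays were the 2 arrays farthest from the median. Without these the correlations were 0.886, 0.880, 0.982, 0.861, 0.919 and 0.796 in the same order, over 10 arrays, lower for all but F42C5.3. F42C5.3 read 8.60, 7.44 and 10.43 on the dve-1-labelled arrays, against 4.02, 4.85 and 5.68 with hsf-1 double RNAi, 2.82, 3.93 and 3.58 with hsp-6 RNAi and 2.82, 2.80 and 2.16 with empty vector. On the dve-1-labelled arrays droe-8 read 4.64, 5.15 and 7.96, math-10 4.19, 4.27 and 6.44 and ZC196.3 4.98, 4.39 and 8.88. These 3 had no measured signal on the 9 others, so they passed the filter solely through that group. Their correlations rest on its high values. The 10 genes were chosen from their levels in these arrays, so all these correlations are descriptive.

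Position in the genome was taken from the RefSeq gene order. pals-11, pals-5 and pals-6 lie in a run of pals genes in that order, with pals-7 between pals-11 and pals-5 and pals-9 between pals-5 and pals-6; neither of these has a probe set of its own here. Within the same run pals-4 and pals-12 were above log2 4 on replicate 3 of the dve-1-labelled arrays alone, and pals-15 on no array. pals-27 lies beside pals-28, which read 2.76, 3.05 and 8.59 on the dve-1-labelled arrays and 2.16 on the 9 others, and near pals-26, which was below log2 4 throughout. pals-31 and pals-32 have chemoreceptor and other genes beside them, and most probe sets of these did not pass the filter.

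The genes beside F26F2.4 and B0507.8 were uneven. F26F2.3 read 4.90, 4.80 and 9.72 on the dve-1-labelled arrays, against 3.27, 6.03 and 3.18 with hsf-1 double RNAi, 2.55, 2.19 and 2.52 with hsp-6 RNAi and 2.55, 2.53 and 2.17 with empty vector. It thus shared with F26F2.4 the high replicate 2 of hsf-1 double RNAi, and it was not called against empty vector (4.06 on the log2 scale, limma adjusted p = 0.0755). F26F2.7, in the same stretch, fell by 1.35 ± 0.29 on the log2 scale on the dve-1-labelled arrays and fell by 1.18 ± 0.29 with hsf-1 double RNAi, both against hsp-6 RNAi (SE, limma adjusted p = 0.0247 and 0.0387). In these comparisons 2.96% and 2.76% of the tested probe sets were called lower. Both calls of F26F2.7 were lost without any 1 of the hsp-6 RNAi replicates, with adjusted p up to 0.0956 and 0.140 over the fits that left out 1 array. They were also lost under 2 and 4 of 11 other settings (limma adjusted p up to 0.098 and 0.138). For hsf-1 double RNAi these included the replicate number as a block. B0507.9, next to B0507.8, read 4.51, 3.52 and 7.22 on the dve-1-labelled arrays and 2.16 on all others. On the other side of B0507.8 lies ddn-1, named after its values were seen, which read 10.11, 10.50 and 12.92 on the dve-1-labelled arrays, against 7.56, 8.64 and 8.98 with hsf-1 double RNAi, 5.76, 7.13 and 5.95 with hsp-6 RNAi and 6.18, 6.52 and 3.65 with empty vector.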

How the data were processed

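Total RNA of whole worms was hybridised to 12 Affymetrix 3' expression arrays. The deposited values are on the log2 scale; the authors made them with GCOS 1.4 and GCRMA, per the submitters' processing notes, with settings not given in the sources used here. Arrays carry no counts, so precision depends on how many there are. Names came from the array's annotation table, and 20701 single-symbol probe sets matched a RefSeq table (WBcel235), used for names and gene order. After 77 control probe sets were removed, limma 3.58.1 (R 4.3.3) compared the groups in 1 fit of 4 group means with an intensity trend, two-sided, Benjamini-Hochberg over 12057 probe sets in each comparison. The members, gene lists, naming rule and alternatives were chosen with earlier results of these data known. The naming rule took all members, up to 4 called genes per list and comparison (up to 2 where none was called), the RNAi targets and the 6 most similar profiles. Same-numbered arrays correlated above 0.1 in their deviations from the group means in all 3 pairs for the dve-1-labelled arrays and empty vector (0.11 to 0.36) and not in all 3 for the 5 other group pairs, so a fit with the number as a block is given beside that comparison. The script was tested on simulated data. Alternatives covered the filter, normalization, variance model, replicate block and single arrays. Figures used matplotlib 3.10.9.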

Additional observations from a re-analysis of the deposited data

How the results depend on the processing

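Under the 23 alternative settings, the differences of the 10 genes between the dve-1-labelled arrays and hsp-6 RNAi, empty vector or hsf-1 double RNAi ran from 0.82 to 6.37, 0.99 to 6.13 and 0.52 to 5.22. Many settings change only the test or arrays of other groups: 96, 87 and 92 of 225 values differed from those reported. The numbers of probe sets called moved more, and the cause was not tested. For the dve-1-labelled arrays against hsp-6 RNAi, 692 calls became 383 with no filter, 433 with the compared groups fitted alone, 106 with hsp-6 RNAi replicates 1 and 3 averaged, and 101 to 1242 leaving out single arrays. Against empty vector 274 became 83, 36, 74, and 43 to 1038 under the same changes. Against hsf-1 double RNAi 28 became 17, 1, 15, and 11 to 25, with 6 at a minimum of log2 6 and 16 with low values set to log2 4. For hsf-1 double RNAi against hsp-6 RNAi 684 became 223, 448, 35, and 35 to 1433. Against empty vector 0 (3593 at an unadjusted p below 0.05) became 4 with no filter, 1 without the intensity trend, and 0 to 1047. For hsp-6 RNAi against empty vector 330 became 1049 with the compared groups alone, 102 averaged, 1681 without hsf-1 double RNAi replicate 3 and dve-1-labelled replicate 2, the outermost arrays on the first principal component, and 97 to 739.

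The labels do not say that replicate numbers pair samples. Deviations of same-numbered arrays correlated at -0.76 to 0.61, with 8 of 18 pairs above 0.1, all 3 pairs of the dve-1-labelled arrays with empty vector among them. With the replicate number as a block, calls went to 384, 149 and 15 for the dve-1-labelled arrays against hsp-6 RNAi, empty vector and hsf-1 double RNAi, to 327 for hsf-1 double RNAi against hsp-6 RNAi, and to 254 for hsp-6 RNAi against empty vector. Values at the GCRMA minimum have no order, so fold changes against them are bounds.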

Other observations

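Genes of other infection responses gave few calls. Of 25 chitinase-like (chil) genes, which are known from the response to oomycetes, 4 passed the filter, and limma called 0 in each of the 6 comparisons, with 0 to 1 at an unadjusted p below 0.05. chil-22 averaged 5.11 on the dve-1-labelled arrays, 5.30 with hsf-1 double RNAi, 4.44 with hsp-6 RNAi and 4.17 with empty vector (n = 3 each). Of 8 irg genes, named for induction by infection and mostly known from bacterial pathogens, 6 passed the filter. irg-5 read 10.80, 9.51 and 10.63 on the dve-1-labelled arrays, against 8.05, 8.91 and 8.99 with hsf-1 double RNAi, 8.47, 9.84 and 8.69 with hsp-6 RNAi and 7.68, 8.32 and 6.16 with empty vector. It was 2.93 ± 0.57 higher on the dve-1-labelled arrays than with empty vector (log2 difference, SE, limma adjusted p = 0.0325), a call that was lost without any 1 of 5 arrays (up to 0.0908), with the replicate number as a block (0.0542) and under 3 other settings (up to 0.132). Unlike the 10 genes, irg-5 was highest on replicate 1 of its group. irg-4 averaged 9.43 on the dve-1-labelled arrays and 7.05 with hsp-6 RNAi, a difference of 2.38 (limma adjusted p = 0.145). irg-8 read 8.43, 8.49 and 8.08 on the dve-1-labelled arrays, against 9.66, 10.02 and 10.56 with hsf-1 double RNAi, 10.04, 9.77 and 10.06 with hsp-6 RNAi and 8.25, 10.55 and 11.31 with empty vector. Its difference between the dve-1-labelled arrays and hsp-6 RNAi was -1.62 (limma adjusted p = 0.127), with an adjusted p of 0.0127 when the compared groups were fitted alone and 0.0121 without empty vector replicate 1, the lowest array of its group.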
